A study of Mus musculus with 16 samples.

Results

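Oxidative phosphorylation, the chain of enzyme complexes in the inner mitochondrial membrane that makes most ATP, was followed through the genes that encode its parts. The genes were chosen by symbol: every row that starts with Nduf, Uqcr, Sdha, Sdhb, Sdhc, Sdhd, Cox4 to Cox8 or Atp5, together with Cycs, Cyc1 and the 13 mRNAs of the mitochondrial genome. The rule gave 108 genes of the 16612 genes in the series, 95 encoded in the nucleus and 13 in mitochondria, of which 107 were in the tumor table (94 nuclear) and 100 in the stroma table (87 nuclear). The symbols also brought in 8 assembly factors of complex I and 4 of complex II, which are not subunits themselves.

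The cells came from a mouse model of B-cell acute lymphoblastic leukemia (B-ALL), in which 500000 mCherry-marked BCR-ABL+ Arf-/- leukemia cells were injected into C57BL/6J hosts that were wild-type (WT) or lacked interleukin-6 (IL-6 KO, written IL6 KO in the labels). All hosts therefore carried the leukemia, were 6 to 8 weeks old and untreated, and gave marrow from femur and tibia on day 8. After lysis of red cells the marrow was sorted into mCherry+ cells (tumor) and mCherry- cells (stroma), with 4 libraries each of WT tumor, IL-6 KO tumor, WT stroma and IL-6 KO stroma. Tumor cells carried the same genotype in both hosts and only the host differed. The labels do not say that the libraries of a group came from separate mice, so p-values measure only the spread between these libraries.

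Complexes I to IV pass electrons from NADH and succinate to oxygen by way of ubiquinone and cytochrome c, all but complex II pump protons as they do so, and complex V, the ATP synthase, uses the proton gradient. Complexes I, III, IV and V are built from subunits of both genomes, while complex II and cytochrome c are wholly nuclear. Mitochondrial mRNAs are cut from long transcripts that cover each strand of the circular genome, so they do not depend on a promoter each as nuclear genes do.

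Values are normalized counts, which are estimated reads per gene scaled within a compartment, and log2 fold changes (IL-6 KO over WT) are on the log2(normalized count + 1) scale. The tables of tumor and stroma were scaled separately, so the compartments were not tested against each other. A gene is called when its limma p, adjusted over all genes tested in the compartment, is under 0.05, and "rose" and "fell" are used of called genes only. The reads behind each library are not given by scaled values, so no counting interval was set. In sorted bulk samples, fewer cells of a type and less RNA per cell cannot be told apart.

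Markers and single abundant RNAs differed between libraries. In tumor the summed level of 10 B lineage and leukemia genes was 142900 to 148000 in WT and 154200 to 161900 in IL-6 KO, while 12 mature neutrophil genes summed to 4706 to 5314 and to 7222 to 17770, with 8 of the 12 called higher. Of the other lists in tumor, 2 of 10 monocyte and macrophage genes rose, 1 B lineage gene rose and 1 fell, 1 of 7 mesenchymal and endothelial genes fell, and none of 7 erythroid and 2 T and NK genes was called. Gata1 and Epor are not listed in tumor, and Cd3d, Cd3e, Cd3g, Cd8a and Ncr1 in neither table. Stroma was all mCherry- marrow and not a single cell type: erythroid genes summed to 124500 to 180000 in WT and 52170 to 218000 in IL-6 KO, neutrophil genes to 7945 to 15330 and 8199 to 33940, and no marker of the 6 lists was called. The 7SL RNA Rn7s1 held 71.5% to 79.0% of all normalized counts in IL-6 KO stroma 1 to 3 against 19.2% to 50.1% in WT stroma. IL-6 KO stroma 4 stood apart, with 61.5% of its counts in CT010467.1 and 10.9% in Rn7s1. Gm26917 held 20.32% to 26.09% of counts in WT stroma and 6.633% to 8.701% in IL-6 KO stroma. Total normalized counts there were 8806000 to 17470000 in WT and 33970000 to 44190000 in IL-6 KO, with no overlap. In tumor Rn7s1 held 3.404% to 4.113% in WT and 5.399% to 6.243% in IL-6 KO. Total normalized counts were 38820000 to 44550000 in WT tumor and 47270000 to 55590000 in IL-6 KO tumor. Gm26917 held 13.11% to 21.2% and 20.02% to 22.66% there, and only these ranges overlapped. The part of these RNAs in the tumor results was not tested.

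Every mitochondrial mRNA fell in tumor cells from IL-6 KO mice. All 13 were called lower, and in all 13 every IL-6 KO library was below every WT library. The median log2 fold change was -1.40 over the 13 mRNAs, against -0.0059 over all 14493 genes tested, of which 9.16% were called lower and 12.0% had every IL-6 KO library below every WT library. With the trend of each library with GC content and length removed, 7 of the 13 stayed called and the median was -0.48. Over the 94 nuclear genes of the list, complex II, cytochrome c and assembly factors included, the median was 0.041. Of these genes, 18 were called higher and 13 lower, where 10.6% of all genes were called higher and 9.16% lower.

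**Figure D1:**
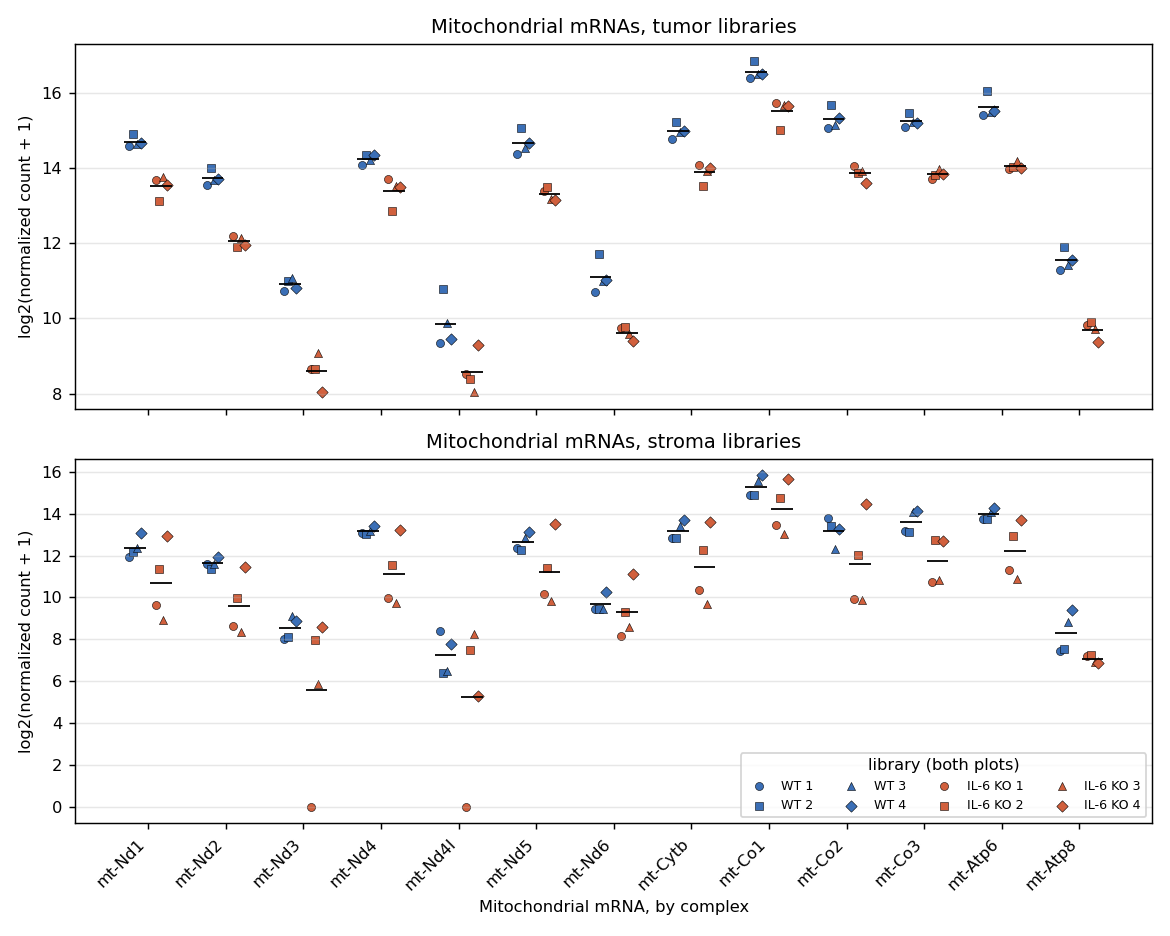
Normalized counts of the 13 mitochondrial mRNAs in each library on the log2(normalized count + 1) scale, in tumor and in stroma, ordered by complex (WT blue, IL-6 KO orange, one symbol per replicate, black lines are group means). In tumor the 4 IL-6 KO libraries lie below the 4 WT libraries for all 13 mRNAs, while in stroma IL-6 KO 1 and 3 lie lowest for most mRNAs and IL-6 KO 4 lies among or above the WT libraries for 9 of 13.

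Complex I takes 7 of its subunits from mitochondrial DNA. mt-Nd2, a proton-pumping subunit, had normalized counts of 11871, 16404, 13116 and 13458 in WT tumor 1 to 4 and of 4713, 3804, 4518 and 3978 in IL-6 KO tumor 1 to 4. The groups were far apart, with a log2 fold change of -1.68 (SE 0.11, limma adjusted p = 3.9e-05). mt-Nd3, whose loop changes shape as complex I switches to its resting form, was at 1698, 2033, 2153 and 1806 in WT and at 400, 399, 539 and 264 in IL-6 KO. Its log2 fold change of -2.30 (SE 0.19, limma adjusted p = 0.000194) was the largest of the 13. mt-Nd5, the longest of the mitochondrial mRNAs, fell by 1.36 on the log2 scale and mt-Nd1 by 1.17. mt-Nd6, the single mRNA read from the other strand, fell by 1.49, within the range of the mRNAs of the main coding strand. mt-Nd4 had the smallest change, at 17380 to 20821 in WT and 7415 to 13334 in IL-6 KO, a log2 fold change of -0.85 (SE 0.16, limma adjusted p = 0.00717). With a nuclear copy summed into mt-Nd4 it was -1.13 and no longer the smallest. mt-Nd4l was at 650, 1768, 937 and 699 in WT and at 368, 332, 263 and 632 in IL-6 KO, so that the nearest libraries of the genotypes almost met. Its log2 fold change was -1.30 (SE 0.34, limma adjusted p = 0.026), and the call was lost without WT replicate 3 or IL-6 KO replicate 1 or 3.

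mt-Cytb, the core of complex III that carries electrons across the membrane, was at 27901 to 38078 in WT and 11786 to 17295 in IL-6 KO, with a log2 fold change of -1.10 (SE 0.13, limma adjusted p = 0.00121). The 3 mitochondrial subunits of complex IV form its catalytic core. mt-Co1, which binds the heme and copper site where oxygen is reduced, was at 86497, 118460, 92889 and 92028 in WT and at 54404, 32894, 52307 and 51564 in IL-6 KO. It fell by 1.05 on the log2 scale (SE 0.16, limma adjusted p = 0.0037), with IL-6 KO 2 well below its 3 replicates. mt-Co2, which receives electrons from cytochrome c, fell by 1.44, and mt-Co3, which steadies the core, fell by 1.40.

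In complex V, mt-Atp6 forms the proton channel beside the turning ring of c subunits. Its normalized counts were 43694, 67454, 46270 and 46878 in WT and 16082, 16812, 18574 and 16352 in IL-6 KO, with a log2 fold change of -1.57 (SE 0.13, limma adjusted p = 0.000182). mt-Atp8, a short subunit of the stalk, was at 2496 to 3837 in WT and 665 to 950 in IL-6 KO and fell by 1.84. WT 2 was the highest of the WT libraries for 12 of the 13 mRNAs, and all 13 calls held without it. mt-Atp8 is shown because it is the shortest and most AT-rich of the 13 (204 nt, 31.9% GC; chrM:7766-7969, plus strand, GRCm38), and because the 43 bases in capitals are also the start of mt-Atp6, so that reads there belong to both.
mt-Atp8: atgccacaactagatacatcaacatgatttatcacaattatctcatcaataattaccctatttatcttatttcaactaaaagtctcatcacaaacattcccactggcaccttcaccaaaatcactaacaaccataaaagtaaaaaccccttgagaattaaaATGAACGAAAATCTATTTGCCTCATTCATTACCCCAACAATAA

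Per kilobase of transcript, and set against the median nuclear gene of the list in the same library, the order of the mitochondrial mRNAs in WT tumor ran from mt-Atp6 (33.3 ± 6.98 times the nuclear median, SD, n = 4), mt-Co1 (28.0 ± 4.07), mt-Co2 (26.6 ± 5.22) and mt-Co3 (22.0 ± 2.61) to mt-Nd3 (2.46 ± 0.339), mt-Nd6 (1.96 ± 0.617) and mt-Nd4l (1.52 ± 0.764). The ranges over libraries of neighbours at both ends of this order overlapped. In IL-6 KO tumor the same 4 mRNAs were highest, led by mt-Co1 (12.7 ± 2.53) and mt-Atp6 (10.2 ± 0.649). mt-Nd6 (0.626 ± 0.0782), mt-Nd4l (0.55 ± 0.219) and mt-Nd3 (0.472 ± 0.131) were below the nuclear median there. This ratio is taken within a library and does not move with its scaling. It leaves out nuclear copies. Gm10222, which matches mt-Nd4l with 100% identity, held 69.7% of their summed counts in WT tumor and 64.7% in IL-6 KO tumor. The place of mt-Nd4l in the order, and on which side of the nuclear median it lies, thus depends on how reads were split.

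The share of the whole list's normalized counts held by mitochondrial mRNAs was 46.7%, 56.5%, 50.6% and 50.2% in WT tumor 1 to 4 and 31.0%, 26.4%, 30.0% and 28.9% in IL-6 KO tumor 1 to 4. The means were 51.0% ± 4.08 and 29.1% ± 1.95 (SD, n = 4), and the groups did not overlap. The sum of mitochondrial mRNAs was 308500 to 434800 in WT and 125100 to 162400 in IL-6 KO, while that of nuclear genes was 325600 to 352300 and 348400 to 373500. The share was lower in each complex with subunits of both genomes. In complex IV it was 77.1% ± 3.04 in WT and 57.8% ± 2.39 in IL-6 KO (SD, n = 4), and in complex I it was 54.4% ± 3.42 and 32.5% ± 2.77. In complex III it was 48.8% ± 4.27 and 28.8% ± 3.44, and in complex V 26.9% ± 4.30 and 10.1% ± 0.609. In complex V the mean log2 level of the 2 mitochondrial mRNAs was 1.20 ± 0.28 above that of the 17 nuclear subunits in WT (SD, n = 4). In IL-6 KO it was 0.42 ± 0.14 below (SD, n = 4). In complexes I, III and IV the mean log2 mitochondrial level stayed above the nuclear one in every tumor library. These log2 levels are not divided by transcript length. Per kilobase, mt-Atp6 and mt-Atp8 were at 10.21 and 1.685 times the nuclear median of the list in IL-6 KO tumor, so still above it. The neutrophil genes, higher in IL-6 KO tumor, summed to 17040, 17770, 7222 and 15570 in IL-6 KO tumor 1 to 4, and their part in the mitochondrial share was not tested.

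**Figure D2:**
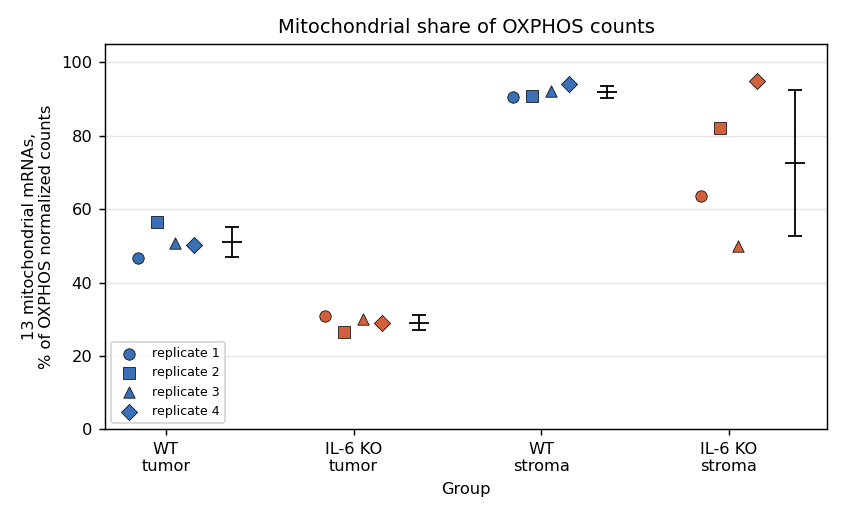
Percent of all normalized counts of the oxidative phosphorylation genes that belonged to the 13 mitochondrial mRNAs, by library and group (symbols are replicates, bars are mean and SD of 4 libraries). WT and IL-6 KO tumor do not overlap (46.7% to 56.5% against 26.4% to 31.0%), and IL-6 KO stroma spreads from 49.9% to 95.0%.

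Nuclear genes within the GC content and length ranges of the mitochondrial mRNAs also tended to be lower, though by less in the median. The 13 mRNAs have 31.9% to 41.1% GC and are 204 to 1824 nt long. Of nuclear genes outside the list, 221 lay within both ranges, and these had a median log2 fold change of -0.68, with 57 (25.8%) called lower and 3 higher. Among the 83 of them that code for protein, the median was -0.32 and 21 (25.3%) were called lower. Over all nuclear genes outside the list the Spearman correlation of log2 fold change with GC content was 0.402 (14095 genes, a description over genes of the same 8 libraries). The 7 mitochondrial mRNAs that stayed called with the trend of each library with GC content and length removed were mt-Nd2, mt-Nd5, mt-Cytb, mt-Co1, mt-Co2, mt-Co3 and mt-Atp6. mt-Nd1, mt-Nd3, mt-Nd4, mt-Nd4l, mt-Nd6 and mt-Atp8 were then not called, with log2 fold changes from -0.68 to -0.03. With the trend fitted without mitochondrial genes and their nuclear copies, 8 were called (mt-Nd3 as well) and the median was -0.54. All 13 log2 fold changes stayed below 0 under each of the 20 alternatives tried in tumor.

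**Figure D3:**
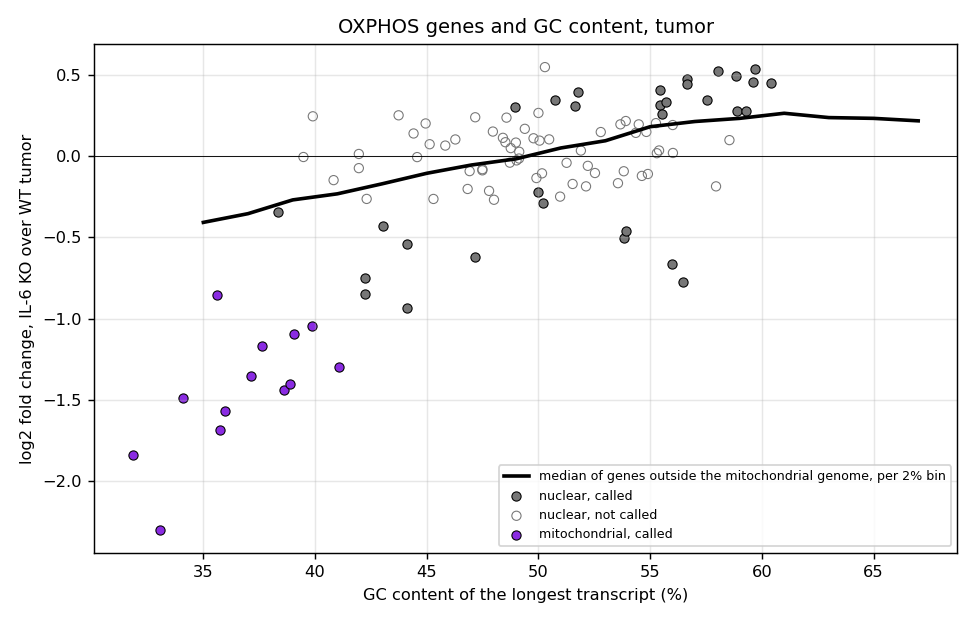
Log2 fold change in tumor (IL-6 KO over WT) against the GC content of the longest transcript in percent, for nuclear (grey) and mitochondrial (purple) genes of oxidative phosphorylation, filled where called, with the median of all genes outside the mitochondrial genome in bins of 2% (black line). The line runs from -0.41 at 34% to 36% GC to 0.26 at 60% to 62%, and all 13 mitochondrial mRNAs lie below its lowest point.

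Nuclear copies of mitochondrial genes share reads with some of the mRNAs. Pieces of mitochondrial DNA on chromosome 1 match mt-Co2 (Gm28661), mt-Atp6 (Gm10925), mt-Co3 (Gm28437), mt-Nd4 (Gm28439) and mt-Nd4l (Gm10222) with 100% identity over 294 to 876 nt, and Gm13340 on chromosome 2 matches mt-Co1 with 97.6% identity. Gm28438 differs from mt-Nd3 in 1 of 345 bases, T3C, with positions counted from 1 at the 5′ end of mt-Nd3. The first 28 bases are shown with the base that differs in capitals (GRCm38, mt-Nd3 at chrM:9459-9486 on the plus strand, Gm28438 at chr1:24613092-24613119 on the minus strand), because reads that miss this base cannot be placed.
mt-Nd3: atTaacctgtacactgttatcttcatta
Gm28438: atCaacctgtacactgttatcttcatta

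In WT tumor Gm28438 was listed with 26.7% of the sum of both, Gm28661 with 21.5% of the sum with mt-Co2, and Gm10222 with 69.7% of the sum with mt-Nd4l. Gm28439 had normalized counts of 2467, 7996, 3847 and 2422 in WT tumor and was listed at 0 in all 4 IL-6 KO libraries. With the copies summed into their mRNAs, the log2 fold changes were -1.13 for mt-Nd4, -1.56 for mt-Nd4l, -2.43 for mt-Nd3 and -1.40 for mt-Co2, and all 13 stayed called. mt-Nd4 then no longer had the smallest change, with mt-Co1 at -1.04.

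The nuclear genes moved in both directions within the same complexes, and by less. Log2 fold changes of the 94 nuclear genes ran from -0.93 to 0.55. Mean log2 levels over the nuclear genes were 11.03 ± 0.03 in WT tumor and 11.04 ± 0.02 in IL-6 KO tumor (SD, n = 4). With 31 of 94 called (33.0%, against 19.8% of all genes tested), 63 did not pass. At an unadjusted p under 0.05 there were 39, where 35.1% of all genes passed. The number that rose was 10 without IL-6 KO 4 and 11 without WT 3 or without IL-6 KO 1. In these fits 1569, 1722 and 1617 of all genes were called in either direction, against 2870 with every library. For 20 of the 94 the lowest IL-6 KO library was above the highest WT library, where 13.6% of all genes were so placed.

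**Figure D4:**
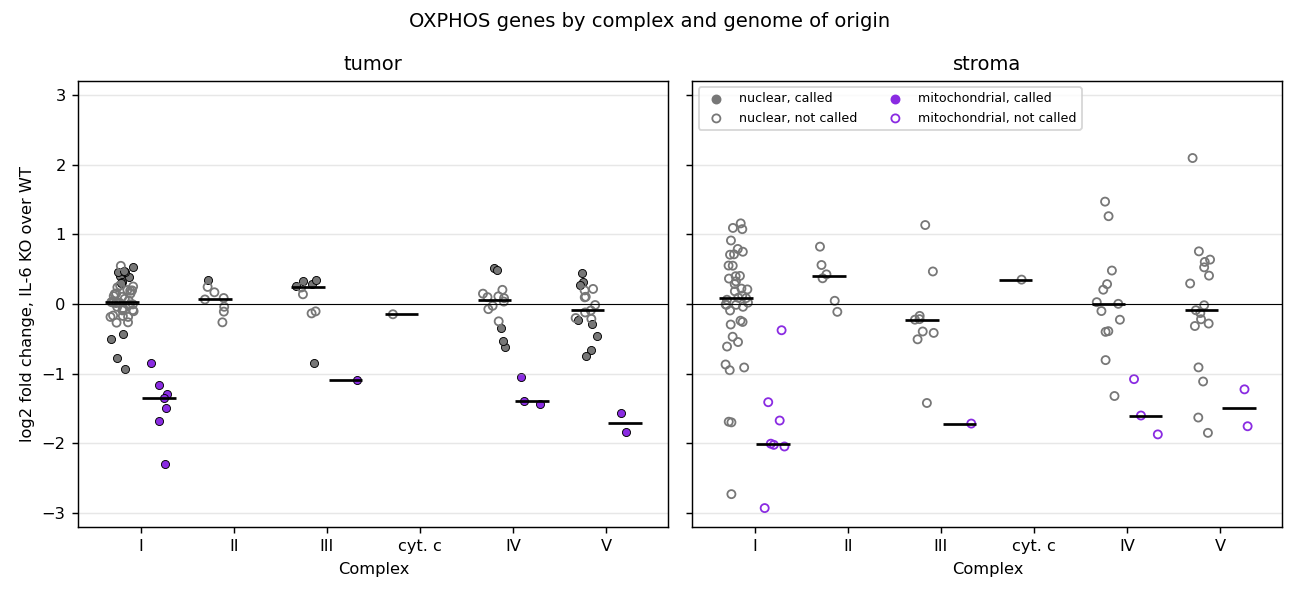
Log2 fold change (IL-6 KO over WT) of nuclear (grey) and mitochondrial (purple) genes by complex in tumor and stroma, assembly factors included, filled where called at a limma adjusted p under 0.05, with medians as black lines. In tumor the mitochondrial medians are -1.36 (complex I), -1.10 (III), -1.40 (IV) and -1.71 (V), while in stroma no gene is called and the nuclear genes scatter from -2.73 to 2.09.

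In complex I, 7 of 37 nuclear subunits rose and 4 fell, with Ndufb1-ps, annotated as noncoding, counted in both the 37 and the 4. Ndufb7, a subunit of the membrane arm on the intermembrane side, was at 2411, 2249, 2198 and 2374 in WT and at 3316, 3628, 3120 and 3341 in IL-6 KO, a log2 fold change of 0.54 (SE 0.07, limma adjusted p = 0.00192). Ndufv1, which holds the flavin that takes electrons from NADH, was at 3999, 3341, 4078 and 3763 in WT and at 5069, 4732, 5818 and 5457 in IL-6 KO, and rose by 0.47. Ndufs7, which carries the last iron-sulfur cluster before ubiquinone, rose by 0.45, Ndufa13 by 0.45 and Ndufa2 by 0.39. Ndufb10 and Ndufs5 rose by 0.31 and 0.30, and of the 8 assembly factors Ndufaf8 rose by 0.40. Of these, Ndufs5 lost the call without any 1 of the 8 libraries, Ndufb10 without any but WT 1 or WT 2, and Ndufaf8 without WT 3, IL-6 KO 1 or IL-6 KO 4. Ndufc1, a small membrane subunit, was at 966, 1082, 1427 and 1158 in WT and at 544, 561, 721 and 588 in IL-6 KO, a log2 fold change of -0.93 (SE 0.14, limma adjusted p = 0.00297) and the largest of the nuclear genes. Ndufb1-ps, annotated as a noncoding RNA from a bidirectional promoter, was at 900 to 1230 in WT and 540 to 636 in IL-6 KO and fell by 0.77. Ndufs3, a core subunit of the arm in the matrix, fell by 0.51 and Ndufs4 by 0.43. Ndufs1, the largest core subunit, was not called, at 3738 ± 216 in WT and 3933 ± 291 in IL-6 KO (SD, n = 4).

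No subunit of complex II, which is also the succinate dehydrogenase of the citric acid cycle, was called. Sdha, the flavin subunit, was at 9237 ± 767 in WT and 9800 ± 879 in IL-6 KO tumor, and Sdhb, the iron-sulfur subunit, at 4897 ± 222 and 4546 ± 436 (SD, n = 4). Both pairs overlapped. Sdhaf1, 1 of 4 assembly factors and needed for the iron-sulfur clusters of Sdhb, was at 443 to 530 in WT and 583 to 651 in IL-6 KO and rose by 0.34 (SE 0.09, limma adjusted p = 0.0316). This call was lost without WT 1, 2 or 3 or IL-6 KO 1, 3 or 4.

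Complex III had 4 subunits called higher and 1 lower of 9. Uqcrc1, a core subunit on the matrix side, was at 8656, 6968, 7366 and 7909 in WT and at 9567, 10005, 9218 and 10295 in IL-6 KO, a log2 fold change of 0.34 (SE 0.08, limma adjusted p = 0.0149). Cyc1, the cytochrome that hands electrons on to cytochrome c, rose by 0.33, with its groups barely apart at 3998 to 5196 and 5218 to 6240. Uqcr11 rose by 0.28 and Uqcr10 by 0.26. The call of Cyc1 was lost without any library but WT 1, that of Uqcr11 without WT 2, WT 3, IL-6 KO 1 or IL-6 KO 4, and that of Uqcr10 without IL-6 KO 4. Uqcrb, which lies at the ubiquinone site, went the other way, at 2514, 2728, 2501 and 2478 in WT and at 1322, 1418, 1498 and 1429 in IL-6 KO. Its log2 fold change of -0.85 (SE 0.07, limma adjusted p = 0.000197) had the smallest adjusted p of the nuclear genes. Uqcrfs1, the Rieske iron-sulfur protein, was not called, with 0.24 (SE 0.09, limma adjusted p = 0.104). Cycs, cytochrome c itself, was at 3600 ± 306 in WT and 3241 ± 136 in IL-6 KO (SD, n = 4) and was not called either.

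In complex IV, 2 of 14 nuclear subunits rose and 3 fell. Cox4i1, which surrounds the mitochondrial core and takes part in its control by ATP, was at 11897, 8826, 10009 and 11388 in WT and at 15348, 12543, 15760 and 16708 in IL-6 KO, a log2 fold change of 0.52 (SE 0.11, limma adjusted p = 0.0134). Cox6a1 was at 5777, 4591, 4945 and 5361 in WT and at 7618, 7849, 6687 and 6901 in IL-6 KO and rose by 0.49. The genotypes did not overlap for either gene, although WT 1 and IL-6 KO 2 were close for Cox4i1. Cox6c was at 2193 to 2364 in WT and 1296 to 1582 in IL-6 KO and fell by 0.62 (SE 0.08, limma adjusted p = 0.00189). Ndufa4, long counted with complex I and now with complex IV, was at 3336 to 3831 and 2365 to 2486 and fell by 0.54, and Cox7c fell by 0.34, a call lost without any library but WT 4 or IL-6 KO 3. Cox5a was not called, at 5415 ± 318 and 5730 ± 255 (SD, n = 4). The tissue forms were mostly the common ones. Per kilobase, WT tumor held 9052 of Cox6a1 and 49.8 of its muscle form Cox6a2, and 3861 of Cox7a2 and 148 of its muscle form Cox7a1. Neither muscle form was called, at log2 fold changes of 0.15 and 0.20, nor were Cox7a2 and Cox7a2l.

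Complex V had 3 of 17 nuclear subunits called higher and 5 lower. Atp5b, the catalytic beta subunit and the gene with the highest normalized count of the nuclear list in tumor, was at 47216, 42464, 42976 and 44416 in WT and at 54882, 51627, 58726 and 54347 in IL-6 KO, a log2 fold change of 0.31 (SE 0.06, limma adjusted p = 0.00928). Atp5d, the delta subunit of the same head, rose by 0.28, whereas Atp5c1, its turning gamma subunit, fell by 0.29. Atp5a1, the alpha subunit, was at 33949 ± 2109 and 39027 ± 4801 (SD, n = 4) and was not called. Atp5j, a part of the side stalk, was at 5010, 5679, 4969 and 5159 in WT and at 3263, 3481, 2994 and 3424 in IL-6 KO and fell by 0.66 (SE 0.07, limma adjusted p = 0.000978). The membrane subunits Atp5md and Atp5mpl fell by 0.75 and 0.46, and Atp5h of the side stalk by 0.22. The call of Atp5d was lost without WT 2, 3 or 4 or IL-6 KO 1 or 4, and that of Atp5h without any library but IL-6 KO 2 or 3. The c subunit that forms the turning ring comes from 3 genes with the same mature protein. Atp5g2 was at 4306, 4218, 3734 and 4307 in WT and at 5859, 5825, 4752 and 6159 in IL-6 KO and rose by 0.44 (SE 0.09, limma adjusted p = 0.0107). Its copy Gm10175, with 100% identity over 645 nt, went the other way, at means of 983 in WT and 436 in IL-6 KO tumor. The call of Atp5g2 held with copies summed, and the part of read splitting in its rise was not tested. Atp5g1 and Atp5g3 were not called, at log2 fold changes of -0.20 and 0.10.

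**Figure D5:**
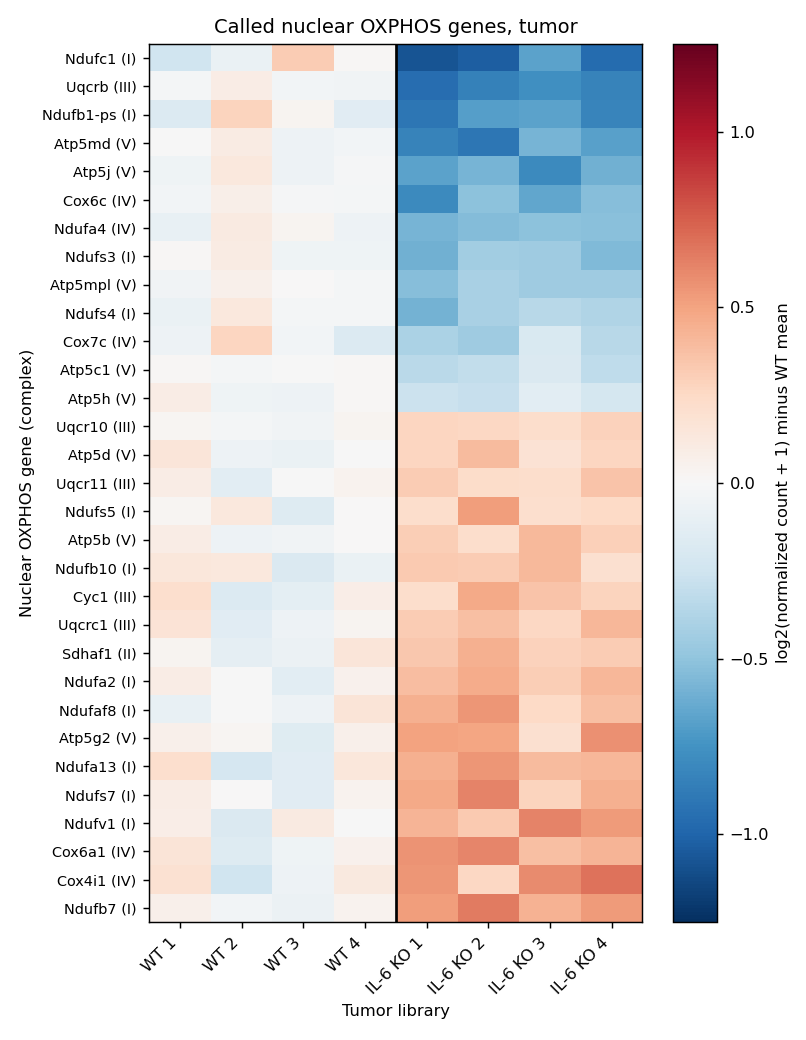
Level of the 31 called nuclear genes in each tumor library as log2(normalized count + 1) minus the mean of the 4 WT libraries, sorted by log2 fold change, with the complex in brackets. Every complex with several called subunits has both higher and lower ones, from Ndufc1 (-0.93) to Ndufb7 (0.54).

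The direction of the nuclear genes also went with GC content. The 18 that rose had a median GC content of 56.6%, the 13 that fell 47.2% and the 63 not called 49.4%, and the Spearman correlation over all 94 was 0.422 (a description). With the trend removed, 13 nuclear genes were called higher and 10 lower, where 1757 of all 14493 genes were called. These were partly other genes. Of the 18 calls of higher genes 13 were lost, among them Ndufv1 (log2 fold change then 0.18), Uqcrc1 (0.04), Cox4i1 (0.26), Atp5b (0.18) and Atp5g2 (0.26), and of the 13 calls of lower genes 5 were lost, among them Uqcrb (-0.03) and Ndufa4 (0.09). Cox7c, at 38.4% GC the most AT-rich of the nuclear genes, was then called higher, with a log2 fold change of 0.61. Of the 31 called genes, 11 were called the same way under all 20 alternatives. Ndufb7, Ndufa2 and Cox6a1 were higher, and Ndufc1, Ndufb1-ps, Ndufs3, Cox6c, Atp5c1, Atp5j, Atp5md and Atp5mpl were lower. The loci of Atp5j and Gabpa, of Cox6c and Vps13b and of Cox4i1 and Emc8 overlap on opposite strands, so their counts hold only as far as reads were kept apart by strand.

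Promoters were looked at for letters bound by factors known to drive these genes, NRF1 (GCGCA followed at once by TGCGC, the same on both strands) and the ETS family that includes GABP (CCGGAAG, either strand). A promoter of 300 bases around the start, most of them before it (RefSeq, GRCm38.p6), was matched by symbol for 79 of the 95 nuclear genes. The NRF1 letters were in 7 of the 79 (8.86%) against 1.07% of all 27025 genes with a promoter, and the ETS letters in 22 (27.8%) against 9.93%. Of the genes called in tumor, the NRF1 letters were in 3 of 15 that rose and 0 of 9 that fell, and the ETS letters in 5 of 15 and 4 of 9. Of 54 genes not called, 4 held the NRF1 letters and 13 the ETS letters. Whether the letters go with the direction of change was not tested, and Atp5g2 and Uqcrc1 were not called with the GC content and length trend removed. The 3 promoters of genes that rose and hold the NRF1 letters, Atp5g2 (chr15:102670998-102671297, minus strand), Cox6a1 (chr5:115348909-115349208, minus strand) and Uqcrc1 (chr9:108936398-108936697, plus strand), are shown beside that of Ndufc1 (chr3:51408906-51409205, minus strand), the gene that fell most and holds neither, with matches in capitals.
Atp5g2: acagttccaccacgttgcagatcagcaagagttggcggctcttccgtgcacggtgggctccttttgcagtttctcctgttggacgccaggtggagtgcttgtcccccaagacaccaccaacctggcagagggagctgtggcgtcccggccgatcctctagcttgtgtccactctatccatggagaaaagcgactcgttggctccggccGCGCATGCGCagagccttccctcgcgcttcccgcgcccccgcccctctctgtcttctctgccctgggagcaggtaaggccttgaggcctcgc
Cox6a1: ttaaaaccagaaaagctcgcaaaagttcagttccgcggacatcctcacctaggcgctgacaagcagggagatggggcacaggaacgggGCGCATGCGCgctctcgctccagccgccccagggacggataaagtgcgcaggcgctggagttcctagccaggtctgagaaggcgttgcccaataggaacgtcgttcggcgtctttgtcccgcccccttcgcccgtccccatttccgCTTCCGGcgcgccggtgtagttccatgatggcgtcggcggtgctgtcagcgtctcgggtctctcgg
Uqcrc1: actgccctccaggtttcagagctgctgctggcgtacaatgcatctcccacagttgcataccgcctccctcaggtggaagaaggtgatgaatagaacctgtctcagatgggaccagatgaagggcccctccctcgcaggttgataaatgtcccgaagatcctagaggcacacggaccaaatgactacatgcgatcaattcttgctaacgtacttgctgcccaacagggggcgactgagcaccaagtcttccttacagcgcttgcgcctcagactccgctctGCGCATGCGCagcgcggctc
Ndufc1: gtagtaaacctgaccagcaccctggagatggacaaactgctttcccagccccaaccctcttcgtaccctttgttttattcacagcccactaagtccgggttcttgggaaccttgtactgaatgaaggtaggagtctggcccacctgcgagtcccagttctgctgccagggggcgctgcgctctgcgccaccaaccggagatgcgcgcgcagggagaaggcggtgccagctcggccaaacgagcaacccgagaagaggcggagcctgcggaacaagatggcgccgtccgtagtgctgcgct

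Genes that make, copy and process mitochondrial RNA, or act on these complexes from outside, were taken from 5 lists of 75 genes. Of 72 tested in tumor, 9 rose and 13 fell (30.6%, against 19.8% of all genes tested, 10.6% higher and 9.16% lower). Of 15 genes of mitochondrial DNA and its transcription, 2 rose and 4 fell. Tfam, which packs mitochondrial DNA and starts its transcription, was at 2115 ± 122 in WT and 1624 ± 112 in IL-6 KO (SD, n = 4), a log2 fold change of -0.38 (SE 0.08, limma adjusted p = 0.0106). Its partner in starting transcription, Tfb2m, fell by 0.41, and Ssbp1, which covers single-stranded mitochondrial DNA, by 0.36. Mterf3 fell by 0.65, while Polrmt, the mitochondrial RNA polymerase, rose by 0.58 and the helicase Twnk by 0.31. With the GC content and length trend removed Mterf3 (-0.43), Twnk (0.15), Tfb2m (-0.28), Polrmt (0.41) and Ssbp1 (-0.19) were not called. The call of Mterf3 was also lost without any library but WT 1 or IL-6 KO 2. Of 16 genes of RNA processing and stability, Slirp, which with its partner Lrpprc protects mitochondrial mRNAs, was at 810 ± 185 and 434 ± 69.9 (SD, n = 4) and fell by 0.89 (SE 0.17, limma adjusted p = 0.00875). Lrpprc was not called, at 4514 ± 183 and 4586 ± 371 (SD, n = 4), a log2 fold change of 0.02. Prorp, the nuclease that cuts the ends of mitochondrial tRNAs, fell by 0.39 and its partner Trmt10c rose by 0.33.

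Of 21 assembly genes, mostly of complex IV, Cox10, Coa6 and Cox14 rose by 0.51, 0.44 and 0.33, and Cox17, which brings copper, Cox20 and Cox16 fell by 1.08, 0.95 and 0.80. With the GC content and length trend removed Cox20 (-0.21) and Cox14 (0.33) were not called, and the call of Coa6 was lost without any library but WT 1. Of 7 regulators, Esrra rose by 0.50, and Yy1 and Gabpa fell by 0.67 and 0.50. Of 13 citric acid cycle genes, 2 rose and 2 fell, among them Ogdh, which rose by 0.21, and Fh1 and Suclg1, which fell by 0.70 and 0.39. These lists thus also held genes of both directions. With the GC content and length trend removed, 3 rose and 11 fell. The number called was 13 without WT 2 or IL-6 KO 4 and 14 without IL-6 KO 1, where 1791, 1569 and 1617 of all genes were called. Esrra (0.24) and Ogdh (0.08) were not called with the trend removed. The call of Prorp was lost without WT 2, WT 4 or IL-6 KO 4, and that of Suclg1 without WT 1, 2 or 4 or IL-6 KO 1 or 4. Tfam, Slirp, Cox10, Cox16, Cox17, Fh1 and Yy1 were called under all 20 alternatives, and Gabpa under the 19 in which it was fitted, whereas Polrmt, Ogdh, Cox14, Ssbp1 and Trmt10c lost the call under at least 9 of them.

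In stroma, none of the 99 genes tested was called, in a comparison in which limma called 1 of 12202 genes (0.00820%). At an unadjusted p under 0.05 there were 8 of 13 mitochondrial mRNAs, all lower in IL-6 KO, and 5 of 86 nuclear genes, where 9.15% of all genes passed in either direction and 5.20% were lower. The median log2 fold change was -1.72 over the mitochondrial mRNAs and 0.022 over the nuclear genes, against -0.013 over all genes tested. Whether the effect of the host genotype differed between tumor and stroma was not tested.

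The mitochondrial mRNAs of the IL-6 KO stroma libraries were spread widely. mt-Co1 was at 30226, 30724, 47730 and 58051 in WT stroma 1 to 4 and at 11097, 27142, 8353 and 51202 in IL-6 KO stroma 1 to 4 (log2 fold change -1.08, SE 0.53, limma adjusted p = 0.563). mt-Cytb was at 7253 to 13209 in WT and at 1300, 4842, 827 and 12537 in IL-6 KO. IL-6 KO 1 and 3 were lowest for both and IL-6 KO 4 lay among the WT libraries. Of the 13 mRNAs, IL-6 KO 1 was below every WT library for 13, IL-6 KO 2 and 3 for 12 each, and IL-6 KO 4 for 4, while IL-6 KO 4 was above every WT library for 3. mt-Co3, mt-Atp6 and mt-Atp8 had every IL-6 KO library below every WT library, as 3.25% of all genes had, and 1 nuclear gene, Ndufa13, lay wholly above WT in IL-6 KO, as 2.54% did. mt-Co3 was at 9226, 9060, 17213 and 17616 in WT and at 1679, 6848, 1816 and 6728 in IL-6 KO, a log2 fold change of -1.87 (SE 0.50, limma adjusted p = 0.324). mt-Nd2 was at 3124, 2638, 3055 and 3944 in WT and at 399, 1017, 321 and 2772 in IL-6 KO, a log2 fold change of -2.02 (SE 0.55, limma adjusted p = 0.324). mt-Nd3 and mt-Nd4l were listed at 0 in IL-6 KO 1, and Gm28661 held 55.4% of its sum with mt-Co2 in WT stroma.

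The median log2 fold change over the 13 mRNAs was -2.26 without IL-6 KO 4, -1.17 without IL-6 KO 3 and -1.27 without IL-6 KO 1. None of the 13 was called by limma when any 1 library was left out. In IL-6 KO stroma 1 to 4 the erythroid genes summed to 58610, 130000, 218000 and 52170 and the neutrophil genes to 33940, 32830, 8199 and 28850, and the part of these cells in the mitochondrial values was not tested. IL-6 KO 1 to 3, which were below WT for 12 or 13 of the mRNAs, were also the libraries with 71.5% to 79.0% of counts in Rn7s1, and the part of that RNA in the result was not tested.

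Against the nuclear genes of the same library, mitochondrial mRNAs held 90.4%, 90.9%, 92.2% and 94.1% of the list's counts in the WT stroma libraries and 63.6%, 82.2%, 49.9% and 95.0% in those of IL-6 KO, or 91.9% ± 1.64 and 72.7% ± 19.9 (SD, n = 4). The share was thus above that of tumor in each WT library. The median mitochondrial mRNA was 91.5 ± 36.4 times the median nuclear gene per kilobase in WT stroma and 6.69 ± 1.18 times in WT tumor (SD, n = 4), set side by side with no test. Complex IV had the largest mitochondrial share in WT stroma at 97.9% ± 0.481 and complex V the smallest at 80.0% ± 2.69, the same ends of the order as in tumor.

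The nuclear genes were low in stroma, and 11 of the 87 were listed at 0 in at least 1 library. Cox4i1 was at 151, 251, 335 and 277 in WT and at 954, 608, 1539 and 233 in IL-6 KO, a log2 fold change of 1.47 (SE 0.52, limma adjusted p = 0.44). IL-6 KO 4 was again with the WT libraries. Cox6b1 (1.26) and Uqcr11 (1.13) had the same pattern, with IL-6 KO 1 to 3 above every WT library, and neither was called. Ndufb5, a membrane subunit of complex I, was at 61.9, 49.9, 22.2 and 16.5 in WT and at 9.76, 7.33, 0 and 6.43 in IL-6 KO, with no overlap and a log2 fold change of -2.73 (SE 1.01, limma adjusted p = 0.457). Its locus overlaps that of Mrpl47 on the opposite strand. Atp5b was at 1194 ± 488 and 1970 ± 957, and Ndufv1 at 368 ± 212 and 369 ± 239 (SD, n = 4), each overlapping. Of the paired forms, Cox6b1 and the testis form Cox6b2 were at 86.7 and 57.9 per kilobase in WT stroma. None of the 60 genes tested of the 5 further lists was called, and 3 passed an unadjusted p under 0.05.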

How the data were processed

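RNA was made into directional, rRNA-depleted libraries and read as 75 nt single ends, and the authors quantified transcripts with Salmon 1.3.0 (mm10, GC and sequence bias corrected) and scaled each compartment with DESeq2 1.28.1. The deposited values are a signal on the scale of normalized estimated counts, with 4 libraries a group. Whole reads could not be recovered, so library depth is unknown and count models were not run. The deposited tables also hold the authors' own comparison of genotypes (fold changes and p-values), not used here.

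Genes with a mean over 10 were tested within each compartment on log2(value + 1) with limma 3.58.1 (R 4.3.3, trend), with genotype as the only term and Benjamini-Hochberg adjustment over all genes tested. The tables were scaled separately, so no test crosses them. GC content and length came from GENCODE vM21, the trend was a loess fit (span 0.3), and copies were found with BLAST 2.17.0 (97% identity over 150 nt). The script was tested on simulated data. Named genes were all mitochondrial mRNAs, 12 core nuclear members, the called tumor genes with the smallest p (at most 3 for each complex in each direction), likewise 3 in each direction in stroma, and tissue forms. The other called nuclear genes, and called genes of the further lists, were named after their values were seen. The members and lists were chosen with earlier results of these data known. Alternatives were other pseudocounts, filters, scalings, weights, a replicate block, removal of the GC trend, summed copies and leaving out each library. Summed pseudogene copies and the trend fitted without mitochondrial genes were added after seeing the data. Il6 was not analysed here. Some genes of the lists are not reported here.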

Additional observations from a re-analysis of the deposited data

Results flagged for a closer look

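In 16 of 172 groups of 4 libraries, 1 library lay far from the other 3 by Dixon's ratio at its 95% critical value, where chance gives about 5%. In tumor, WT 2 was high for mt-Atp6 (67454, others 43694 to 46878), Uqcrb (2728, others 2478 to 2514) and Cox6a2 (52.1, others 26.3 to 30.6). WT 3 was low for Cox7a2l (4043, others 4457 to 4501) and Atp5g2 (3734, others 4218 to 4307). IL-6 KO 2 was low for mt-Co1 (32894, others 51564 to 54404) and Atp5a1 (31851, others 41016 to 41978), and high for Atp5g1 (4203, others 3198 to 3260).

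In stroma, IL-6 KO 4 was high for mt-Nd5 (11767, others 898 to 2740), mt-Co2 (22730, others 936 to 4236) and Ndufs1 (491, others 264 to 276). IL-6 KO 3 was high for Ndufv1 (728, others 240 to 256). WT 4 was high for mt-Nd6 (1237, others 699 to 708) and Atp5g1 (57.8, others 32.0 to 33.2), and WT 1 was low for Cyc1 (143, others 192 to 202) and high for Atp5a1 (1522, others 1080 to 1127).

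The mitochondrial ribosomal RNAs are not among the 108 genes. mt-Rnr1 was at 37084 in IL-6 KO tumor 2, above the highest WT tumor library (15385), and at 122820 in IL-6 KO stroma 4 (highest WT 26732). mt-Rnr2 was at 332610 in IL-6 KO stroma 4 (highest WT 279560).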

How the results depend on the processing

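In tumor, all 13 mitochondrial mRNAs kept a negative log2 fold change under each of 20 alternatives, and 12 or 13 were called when 1 library was left out. The exception to the calls was the trend with GC content and length. With it removed, 7 were called with a median of -0.48, and with it fitted without mitochondrial genes and their copies (chosen after seeing the data), 8 with a median of -0.54. The median of nuclear genes was then 0.09 (0.0916 and 0.0932), and the further lists had 14 called genes under both. Under these 2 settings Ndufa4 turned to 0.0869 and 0.0787, Cox7c to 0.61 and 0.53 and Atp5d to -0.0608 and -0.0592. Why these values turned was not tested.

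Nuclear calls in tumor ran from 21 to 35 when 1 library was left out and from 23 to 40 otherwise. Those of the further lists ran from 13 to 24 when 1 library was left out. The calls over all genes moved as well. Without IL-6 KO 4, where 21 nuclear genes were called, 1569 of all 14540 genes were called. Without IL-6 KO 2, where 35 were called, 3327 of all 14532 were. With near-identical copies summed, the mitochondrial share in WT stroma was 89.7%. In stroma no member was called by limma under any of the 20 alternatives. Of single named genes in tumor, 69 values under an alternative lost the call, 11 gained one, and 8 uncalled ones changed sign, and in stroma 24 uncalled ones did.

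Replicate numbers are shared by the groups, but same-numbered libraries had correlations of their deviations from -0.0186 to -0.000283 in tumor, and of 0.0959, 0.0476, -0.0293 and 0.126 in stroma for numbers 1 to 4. As not every pair was over 0.1 in either compartment, the numbers were not taken to pair the libraries. With the replicate number as a block, 12 mitochondrial mRNAs, 26 nuclear genes (15 higher, 11 lower) and 17 genes of the further lists were called in tumor, and none in stroma. The calls over all genes in that fit are not reported here, so these counts have no background beside them. Library depth is not known, so low values in stroma have no counting error.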

Other observations

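The mitochondrial ribosomal RNAs of tumor, which are read from the same strand as most of the mRNAs and build the mitochondrial ribosome, were at mean normalized counts of 164600 ± 27400 (mt-Rnr2) and 13570 ± 1330 (mt-Rnr1) in WT (SD, n = 4). mt-Rnr2 fell, with a log2 fold change of -1.20 (SE 0.13, limma adjusted p = 0.000961). mt-Rnr1 was not called, with -0.63 (limma adjusted p = 0.449). It was at 12239 to 15385 in WT and at 6305, 37084, 5121 and 4887 in IL-6 KO 1 to 4. IL-6 KO 2 was thus above every WT library, and the other IL-6 KO libraries were below every WT library. The libraries were depleted of rRNA, and the part of that step in these values was not tested. In stroma neither was called, with log2 fold changes of -1.60 for mt-Rnr2 and -0.63 for mt-Rnr1.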
